A study of Mus musculus with 6 samples.

Results

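Contactins and the L1 family are 2 families of immunoglobulin-domain adhesion molecules on axons. All 10 genes of these families (6 contactins, Cntn1 to Cntn6, and 4 L1 family genes, L1cam, Nrcam, Chl1 and Nfasc) were taken by symbol from the 34866 rows of an RNA sequencing count table, and each had enough counts to be tested. The 6 libraries were made from embryonic mouse forebrain (E14.5). The 3 libraries labelled mutant came from embryos with the Sap130 genotype f/- (1 floxed and 1 null allele), and the 3 labelled control from littermates with f/+ (1 floxed and 1 wild-type allele). All 6 embryos carried Emx1-cre, whose recombinase acts in the lineage of the dorsal telencephalon. The other cells of the dissected forebrain keep their floxed allele intact, but in f/- embryos these cells carry the null allele as well. The Sap130 protein belongs to the Sin3 co-repressor complex, which removes acetyl groups from histones.

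Contactins are held on the outer membrane by a lipid anchor and have no cytoplasmic part, so they signal through partners in the same membrane such as the contactin-associated proteins. L1 family members span the membrane and bind ankyrins inside the cell, which tie them to the spectrin skeleton. Both families act in axon outgrowth, fasciculation and guidance, and later at nodes of Ranvier and synapses. Cntn2, also called TAG-1, is known as a surface protein of young axons, among them those leaving the developing cortex.

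The genes lie on 6 chromosomes (GRCm38, GENCODE M21). Cntn2 (ENSMUSG00000053024, chromosome 1, 132509427 to 132543256, minus strand) is followed after 21.4 kb by Nfasc (ENSMUSG00000026442, 132564690 to 132741797, minus strand). Cntn3 (ENSMUSG00000030075, 102162655 to 102573101), Chl1 (ENSMUSG00000030077, 103510586 to 103750211), Cntn6 (ENSMUSG00000030092, 104492790 to 104863406) and Cntn4 (ENSMUSG00000064293, 105677660 to 106699310) stand in a row on chromosome 6, with 742.6 to 937.5 kb between neighbours. L1cam (ENSMUSG00000031391) is on chromosome X, Nrcam (ENSMUSG00000020598) on 12, Cntn1 (ENSMUSG00000055022) on 15 and Cntn5 (ENSMUSG00000039488) on 9. Most are long genes: Cntn5 spans 1243.9 kb and Cntn4 1021.7 kb, whereas Cntn2 spans 33.8 kb and L1cam 42.3 kb. Exons of L1cam overlap those of the protein-coding gene Arhgap4, and exons of Cntn5 overlap the antisense gene Gm32710, so part of their counts may be shared, as the library kit marks no strand.

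The 88 bases before a RefSeq start (RefSeq, GRCm38.p6) are shown for the 4 genes where these bases hold no annotated exon and the start lies within 1000 bases of the gene's 5′ end given by GENCODE, so that Cntn2 can be set beside 3 members with smaller differences below. The RefSeq start of Cntn2 lies 316 bases inside its annotated gene, and those of the other 3 are at the gene's 5′ end. For Cntn1 and Cntn5, which have further RefSeq starts, only this one is shown.
Cntn2, chr1:132542941-132543028, minus strand: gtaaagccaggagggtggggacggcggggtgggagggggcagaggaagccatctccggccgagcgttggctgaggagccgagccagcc
Cntn1, chr15:92051077-92051164, plus strand: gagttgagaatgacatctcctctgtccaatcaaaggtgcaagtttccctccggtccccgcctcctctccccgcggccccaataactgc
Cntn5, chr9:10904776-10904863, minus strand: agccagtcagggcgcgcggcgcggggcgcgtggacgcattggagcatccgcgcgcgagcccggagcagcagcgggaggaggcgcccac
Nrcam, chr12:44328797-44328884, plus strand: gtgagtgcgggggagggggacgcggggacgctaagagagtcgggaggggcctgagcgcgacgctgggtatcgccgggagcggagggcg
G and C make up 71.6% of the Cntn2 run, 58.0% of that of Cntn1, 78.4% of that of Cntn5 and 75.0% of that of Nrcam. The letters CANNTG (E-box, the site type of bHLH factors, which read the same on both strands) are in none of the 4 runs, whereas 30.7% of 32851 RefSeq promoter records hold them in the last 88 bases before the start. Within 250 bases before these starts Cntn2 and Nrcam hold 1 each and Cntn1 and Cntn5 hold 0, where 66.2% of the records hold them. Among starts not shown, the other Cntn5 start holds 3, Cntn6 4, the Cntn4 starts 4 and 1, and the L1cam starts 1 and 2. The Nfasc starts hold 1 and 0, Cntn3 1, and Chl1 and the further Cntn1 starts 0. Of these, 3 of Cntn5, 2 of Cntn6, 2 of Cntn4 and 1 of Nfasc lie within 88 bases. The low counts in the 4 runs shown thus do not hold for all members.

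The targeted gene was examined first. Sap130 had 137.7, 124.1 and 124.1 CPM (read counts scaled to a common library size with TMM factors) in the libraries labelled mutant, against 82.8, 84.9 and 84.4 CPM in those labelled control. It rose by a log2 fold change of 0.61 ± 0.076 (SE; adjusted p = 0.0116, edgeR's quasi-likelihood test, with p-values adjusted by Benjamini-Hochberg over all 15216 genes tested). The same test was not passed without replicate 2 labelled mutant or without any 1 control library (adjusted p = 0.0689 to 0.111). In those fits 0.0193 to 0.0453% of all genes were called. Without any 1 library the fold change stayed between 0.56 and 0.64 on the log2 scale. The summed count of Sap130 was thus not lower in the group labelled mutant. Counts summed over a gene cannot tell whether the floxed exons were read, so whether the gene was lost was not tested. The groups are therefore called by their labels throughout. Total estimated counts were 20775583 to 25999874 per library. Titles begin with SPF-539 (1 library of each group, the replicate 1 libraries) or SPF-552 (2 of each), and the first principal component, with 29.5% of the variance, separated these numbers, so values within each are given. Emx1, a regulator of the dorsal telencephalon, averaged 50.05 CPM in the libraries labelled mutant and 59.2 CPM in those labelled control.

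In levels per length, Cntn2 stood above the other 9 genes in every library. It averaged 48.8 ± 12.4 CPM per kb of exon in the libraries labelled mutant and 76.9 ± 1.51 CPM per kb in those labelled control (SD, n = 3 each). The order of control means went on with L1cam (31.7 CPM per kb), Chl1 (30.2), Nfasc (16.5), Nrcam (14.2), Cntn1 (5.21), Cntn5 (2.05), Cntn3 (1.05), Cntn6 (0.997) and Cntn4 (0.904). The L1 family genes thus lay within a narrow range and the contactins over a wide one. In the libraries labelled control, L1cam and Chl1 overlapped in level, as did Cntn3 with Cntn6 and Cntn6 with Cntn4, and the other neighbours in the order did not overlap. In the libraries labelled mutant L1cam lay above Chl1 without overlap, whereas Nrcam and Nfasc overlapped.

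**Figure D1:**
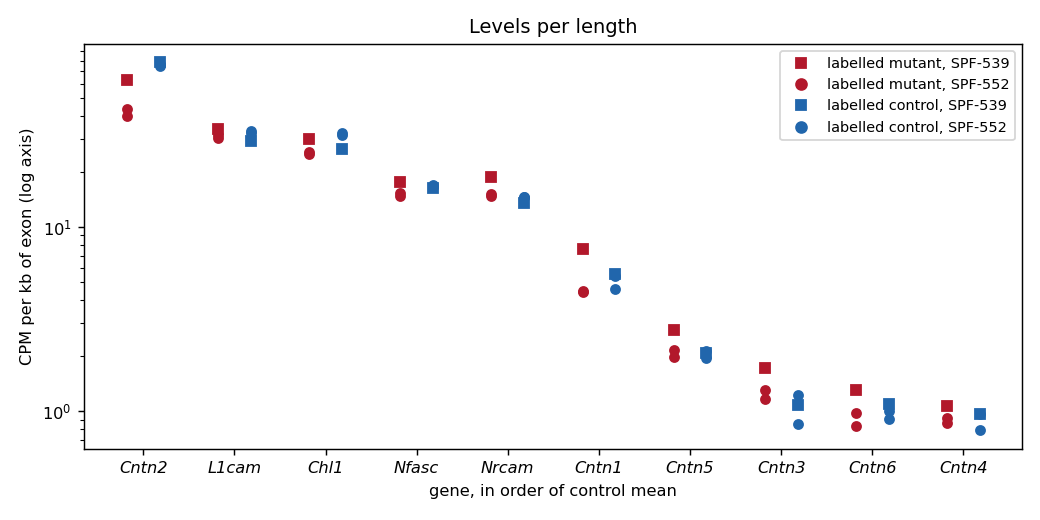
TMM-scaled CPM per kb of union exon length (log axis) of the 10 genes in each library, red for libraries labelled mutant and blue for those labelled control, squares for SPF-539 and circles for SPF-552. Cntn2 is highest in all libraries, and its 3 red points (39.9 to 63.0 CPM per kb) lie below the 3 blue ones (75.4 to 78.4).

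The comparison of the groups asked whether these adhesion genes differ between f/- and f/+ embryos that carry Emx1-cre. Recombination in the dorsal lineage and the null allele in the other cells cannot be told apart here. Cntn2 was the gene with the largest difference, at 0.634 times the control mean in the libraries labelled mutant, but it did not pass an FDR of 0.05. None of the 10 genes passed by edgeR's quasi-likelihood test, against 0.138% of all genes tested (21 of 15216). At an unadjusted p under 0.05 there was 1 gene, Cntn2, against 9.6% of all genes. DESeq2 and edgeR's likelihood-ratio test each called 1 of the 10, Cntn2, against 1.33% and 0.986% of all genes. The median log2 fold change was 0.07 over the 10 genes and 0.00 over all genes tested, with 7 genes above 0 and 3 below.

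Cntn2 stood at 586, 405 and 371 CPM in replicates 1 to 3 labelled mutant, against 729.9, 715.5 and 702 CPM in those labelled control. Every value labelled mutant lay below every control value, as for 8.49% of all genes tested. The libraries labelled control differed little, and among those labelled mutant replicate 1 lay between the control libraries and the other 2. The means were 453.9 ± 115.4 and 715.7 ± 14.1 CPM (SD, n = 3 each). This gave a log2 fold change of -0.66 ± 0.141 (SE), with a 95% interval of -0.96 to -0.35 (adjusted p = 0.11, edgeR's quasi-likelihood test). An exact permutation test of the log2 CPM (two-sided) gave p = 0.1, the lowest value that this number of libraries can reach.

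The strength of this difference depended on replicate 1 labelled mutant. Within SPF-539 the log2 difference of Cntn2 was -0.32, from 1 library against 1 and with no test. Within SPF-552 it was -0.87 (adjusted p = 1.23e-06, edgeR's quasi-likelihood test on 2 against 2 libraries, where 3.7% of all genes were called). Without replicate 1 labelled mutant the log2 fold change was -0.88 (adjusted p = 1.13e-05, the same test), where 2.14% of all genes were called. Without any other single library it lay between -0.67 and -0.53 and did not pass (adjusted p of 0.264 or more, the same test). In those fits only 0.0193 to 0.0577% of all genes were called. With all 6 libraries the adjusted p of Cntn2 was 0.000285 with DESeq2 and 0.00599 with the likelihood-ratio test. The authors' deposited table gives Cntn2 a log2 fold change of -0.68 and an FDR of 3.86e-05, rank 30 of its 369 genes by p, and lists no other gene of these families.

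**Figure D2:**
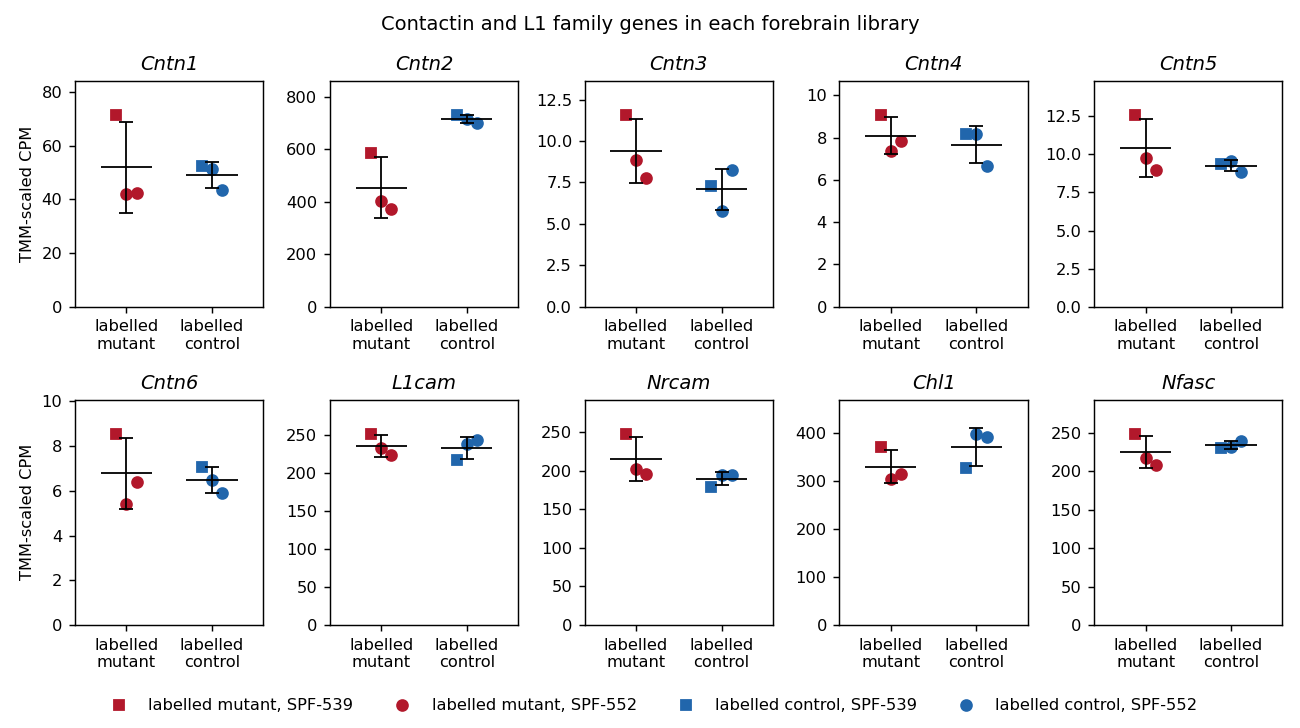
TMM-scaled CPM of each gene in each library, those labelled mutant on the left and those labelled control on the right of every panel, squares for SPF-539 and circles for SPF-552, with the mean (long bar) and SD (n = 3). Of the 10 panels, Cntn2 has all values labelled mutant below the control values and Nrcam has them all above, and in the other 8 the groups overlap.

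Cntn2 also took a smaller part of the contactin transcripts within each library. Its share of the summed CPM per kb of the 6 contactins was 81.3, 81.9 and 80.7% in the libraries labelled mutant, against 87.9, 88.1 and 88.8% in those labelled control. The other 5 contactins, all long genes, summed to 14.4, 9.62 and 9.54 CPM per kb in the libraries labelled mutant, against 10.8, 10.4 and 9.49 CPM per kb in those labelled control. Replicate 1 labelled mutant was the highest of all libraries in this sum, which lowers the share of Cntn2 there, and replicates 2 and 3 lay within the control range. In log2 terms Cntn2 lay below the mean deviation of the other 5 contactins by amounts of -0.76, -0.80 and -0.93 in the libraries labelled mutant, against -0.05, 0.01 and 0.04 in those labelled control. This share was examined after the values had been seen and has no test.

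Markers of cell types in the forebrain moved alongside Cntn2, and in bulk tissue fewer cells of a type and less RNA per cell cannot be told apart. The 10 dorsal telencephalon markers summed to 1475 to 1538 CPM in the libraries labelled mutant and to 1930 to 1969 CPM in those labelled control, without overlap. The 8 intermediate progenitor markers summed to 475.2 to 510.2 CPM in the libraries labelled mutant and to 632.9 to 680.8 CPM in those labelled control. The 10 deep-layer projection neuron markers summed to 1103 to 1278 CPM in the libraries labelled mutant and to 1252 to 1389 CPM in those labelled control. These sums overlapped, but 9 of the 10 markers had a log2 fold change below 0. Of the 10 markers, 6 were lower without overlap, as were 8.49% of all genes tested. Nxph3 alone of the 10 was called, and it fell (log2 fold change -1.28, adjusted p = 0.003, edgeR's quasi-likelihood test). Foxp2, the 1 marker above 0, was higher without overlap (log2 fold change 0.35, adjusted p = 0.215, the same test). The median deviation of the deep-layer markers from the control mean was -0.225, -0.288 and -0.366 on the log2 scale in the libraries labelled mutant, against -0.05, 0.057 and 0.023 in those labelled control. The 12 pan-neuronal markers overlapped as well, at 6468 to 7201 CPM in the libraries labelled mutant and 6749 to 7175 CPM in those labelled control. The 12 ganglionic eminence and interneuron markers were higher without overlap, at 1030 to 1169 CPM against 838.6 to 972.2 CPM, and so were the 12 diencephalon markers, at 537.7 to 630.8 CPM against 440.2 to 462.7 CPM. Sums were also higher without overlap for radial glia (2253 to 2472 against 2007 to 2154 CPM) and Cajal-Retzius cells (483.1 to 624.4 against 421.8 to 436.9 CPM). Single markers were higher without overlap for 5 of 12 in the ganglionic eminence list, 5 of 12 in the diencephalon list, 3 of 9 in the radial glia list and 3 of 8 in the Cajal-Retzius list. Over all genes tested this share was 8.17%. The 5 oligodendrocyte precursor markers each overlapped between groups, although their sums did not (98.5 to 116.8 against 92.1 to 95.2 CPM). The endothelial, meningeal, microglial, choroid plexus and erythroid sums overlapped between the groups. No marker in these lists was at 0 in any library, and their part in the lower Cntn2 level was not tested. Replicate 1 labelled mutant, with the highest Cntn2 of its group, had 1534 CPM of the dorsal markers, within the range of the other 2. It had the highest sums of its group for deep-layer (1278 CPM) and pan-neuronal (7201 CPM) markers. Its sums were the lowest of the group for intermediate progenitor (475.2 CPM), ganglionic eminence (1030 CPM) and diencephalon (537.7 CPM) markers.

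Genes whose pattern over the 6 libraries lay nearest to that of Cntn2 were found among the 13835 tested genes that averaged 1 CPM or more, by the root mean square difference in log2 CPM minus the control mean. The nearest were Nfix, a nuclear factor I transcription factor, and Eomes, a T-box factor of intermediate progenitors, each at 0.067, and Sstr3, a somatostatin receptor, at 0.084. Nfix had 530.0, 376 and 364 CPM in the libraries labelled mutant, against 729, 720.0 and 670.0 CPM in those labelled control. Its log2 fold change of -0.74 did not pass (adjusted p = 0.0565, edgeR's quasi-likelihood test). Eomes, which is also in the intermediate progenitor list, had 137, 105 and 101 CPM in the libraries labelled mutant, against 186, 178 and 176 CPM in those labelled control. Eomes fell, with a log2 fold change of -0.65 (adjusted p = 0.0472, edgeR's quasi-likelihood test). Nearest to Cntn3, the gene with the second smallest p, were Lrriq1 and Dnase2a, each at 0.074, and Malt1 at 0.106. Among the 10 genes the one nearest to Cntn2 was Chl1, at 0.399, while the other 9 had a nearest member at 0.072 to 0.235. The closest pairs were L1cam with Nfasc (0.072), within the L1 family, and Cntn5 with Nrcam (0.074), across the families.

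The 12 tested genes within 500 kb of Cntn2 had log2 fold changes between -0.18 and 0.34, with a median of 0.03. Nfasc, the nearest member on the chromosome, had 249, 218 and 209 CPM in the libraries labelled mutant, against 230.2, 231.5 and 240.2 CPM in those labelled control. Nfasc encodes neurofascin, which assembles axon initial segments and nodes. The groups overlapped, with a log2 fold change of -0.06 and a 95% interval of -0.24 to 0.13 (adjusted p = 0.873, edgeR's quasi-likelihood test).

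The remaining contactins had low levels and wide intervals. Cntn3, also called BIG-1, had 11.6, 8.83 and 7.78 CPM in the libraries labelled mutant, against 7.26, 5.75 and 8.23 CPM in those labelled control. Replicate 1 labelled mutant was highest, and the other values of the groups overlapped. Its log2 fold change of 0.41 (standard error 0.190) was the largest above 0 of the 10 genes, with a 95% interval of -0.01 to 0.82 (adjusted p = 0.528, edgeR's quasi-likelihood test). Cntn1, a partner of Cntnap1 at paranodal junctions, had 71.4, 42.0 and 42.5 CPM in the libraries labelled mutant, against 52.6, 51.2 and 43.6 CPM in those labelled control. Here replicate 1 labelled mutant lay above all other libraries and the other 2 below all controls. The log2 difference of Cntn1 was 0.44 within SPF-539 and -0.16 within SPF-552, and the pooled log2 fold change was 0.08 (95% interval -0.35 to 0.51). Cntn4, Cntn5 and Cntn6, which are known for roles in forming neural circuits, lay between 5.39 and 12.6 CPM in all libraries and overlapped between groups. Their log2 fold changes were 0.08, 0.17 and 0.07, with 95% intervals reaching from -0.35 at the lowest to 0.51 at the highest.

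**Figure D3:**
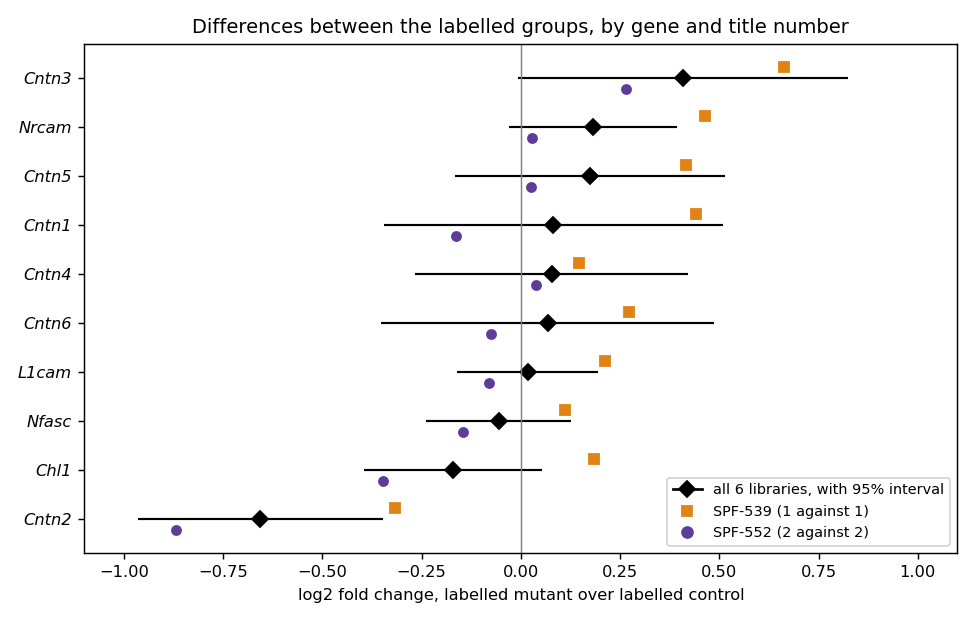
Log2 fold change of each gene, labelled mutant over labelled control, from all 6 libraries with its 95% interval (black diamonds and lines), and the log2 difference within SPF-539 (orange squares, 1 library against 1) and within SPF-552 (purple circles, 2 against 2). Only Cntn2 has an interval that leaves out 0, and for every gene the SPF-539 value lies to the right of the SPF-552 value.

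The 4 L1 family genes had log2 fold changes between -0.17 and 0.18. None reached an unadjusted p under 0.05 or was called by DESeq2, against 9.6% and 1.33% of all genes. Chl1, close homolog of L1, which guides thalamocortical axons and positions cortical neurons, had 369.9, 304 and 315 CPM in the libraries labelled mutant, against 326, 398 and 390.2 CPM in those labelled control. Both replicate 1 libraries departed from their groups, upward in the group labelled mutant and downward in the controls, so the groups overlapped. The log2 fold change was -0.17 with a 95% interval of -0.39 to 0.05 (adjusted p = 0.652, edgeR's quasi-likelihood test). Within SPF-552 it was -0.35 (adjusted p = 0.00148, the same test on 2 against 2 libraries), while within SPF-539 the log2 difference was 0.18, and whether these differ was not tested. Chl1 and Cntn2 were the 2 genes of the 10 called within SPF-552, both lower, against 2.15% of all genes called lower there.

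Nrcam, which acts with semaphorin receptors in axon guidance, had 248, 202 and 195.9 CPM in the libraries labelled mutant, against 179.7, 194.9 and 195.3 CPM in those labelled control. Its groups did not overlap, as for 8.17% of all genes in that direction, but 2 of the libraries labelled mutant lay within a few CPM of the highest control. The log2 fold change was 0.18 with a 95% interval of -0.03 to 0.39 (adjusted p = 0.597, edgeR's quasi-likelihood test), and within SPF-552 the log2 difference was 0.03. L1cam, the founding member, whose human gene is mutated in X-linked hydrocephalus, had 251, 232 and 223 CPM in the libraries labelled mutant, against 216.5, 238 and 243 CPM in those labelled control. It overlapped, and its log2 fold change of 0.02 had the narrowest interval of the 10 genes, -0.16 to 0.195. Summed per length, the L1 family reached 90.9 ± 8.28 and 92.6 ± 6.01 CPM per kb in the libraries labelled mutant and control (SD, n = 3 each).

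Replicate 1 labelled mutant held the highest value of 8 of the 10 genes, the exceptions being Cntn2 and Chl1. The same library held the highest value of 25.7% of all genes tested and of 55.9% of the 942 tested genes that span at least 200 kb. Of the 10 members 7 span that much, and the part of gene length in their values was not tested beyond the offset given below. The median deviation of these long genes from the control mean was 0.21 on the log2 scale in replicate 1 labelled mutant, against -0.01 and -0.02 in the other libraries labelled mutant and -0.04 to 0.03 in those labelled control. For the 2044 tested genes with under 2 kb of exon it was -0.24, 0.00 and 0.03 in the libraries labelled mutant and -0.02 to 0.03 in those labelled control. Within SPF-539, 9 of the 10 genes were above 0 with a median of 0.24, where 78.6% of the long genes were above 0 with a median of 0.26. Within SPF-552, 4 of the 10 were above 0 with a median of -0.08, where 45.4% of the long genes were above 0 with a median of -0.03. With an offset for exon length in each library, Cntn2 had a log2 fold change of -0.72 and passed (adjusted p = 0.0359, edgeR's quasi-likelihood test), as did 0.447% of all genes, and the other 9 genes did not.

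**Figure D4:**
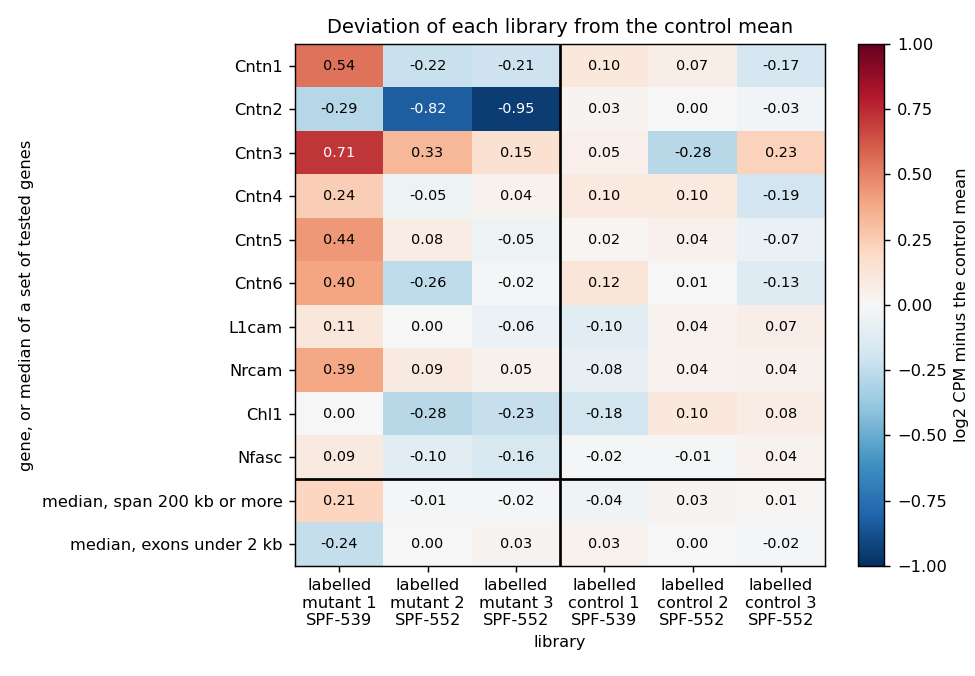
Log2 CPM minus the control mean for the 10 genes in each library (columns, labelled mutant left of the line), and below the line the median of tested genes spanning at least 200 kb and of those with under 2 kb of exon. Replicate 1 labelled mutant is above 0 by 0.09 or more for 8 genes (up to 0.715 for Cntn3) and at 0.00 for Chl1, and its Cntn2 value of -0.29 lies above the -0.82 and -0.95 of the other 2.

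Binding partners and related adhesion genes were compared in the same fit. Of 84 such genes, all tested, Bcan fell and none rose, against 0.112% of all genes lower and 0.0263% higher. Their median log2 fold change was 0.09, with 58 above 0, and replicate 1 labelled mutant held the highest value of 58 genes.

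Bcan, which encodes the brain proteoglycan brevican, averaged 11.3 ± 2.11 CPM in the libraries labelled mutant and 23.9 ± 1.75 CPM in those labelled control (SD, n = 3 each). Its log2 fold change was -1.08 (standard error 0.144, adjusted p = 0.0155, edgeR's quasi-likelihood test). The call was lost without replicate 2 labelled mutant or without any 1 of the 3 control libraries. In those fits 0 of the 84 genes were called by the same test, against 0.0193 to 0.0453% of all genes. Without replicate 1 labelled mutant 5 of the 84 were called, against 2.14% of all genes. Among the 8 receptor phosphatases and matrix ligands Bcan alone was called, and DESeq2 called Bcan and Vcan, against 1.33% of all genes. Ptprg, the receptor phosphatase bound by several contactins, had a log2 fold change of 0.18 and the proteoglycan genes Vcan and Ncan 0.42 and 0.11, none of which passed (adjusted p = 0.638, 0.275 and 0.789, the same test).

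None of the 7 contactin-associated proteins passed by edgeR's quasi-likelihood test. There was 1 at an unadjusted p under 0.05, against 9.6% of all genes, and 0 by DESeq2, against 1.33%. Their median log2 fold change was 0.20 and 6 lay above 0. Cntnap2, the partner of Cntn2 at juxtaparanodes, averaged 139.7 ± 5.36 CPM in the libraries labelled mutant and 122.1 ± 4.97 CPM in those labelled control (SD, n = 3 each), without overlap. Its log2 fold change was 0.195 (adjusted p = 0.416, edgeR's quasi-likelihood test), the opposite sign to that of Cntn2. Cntnap4, Cntnap5a and Cntnap5b had log2 fold changes of 0.19, 0.37 and 0.39, each larger within SPF-539 (0.45 to 0.64) than within SPF-552 (0.05 to 0.18).

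Of the 15 ankyrin, spectrin and other anchor genes none was called, 2 had an unadjusted p under 0.05 (9.6% of all genes) and 0 were called by DESeq2 (1.33%). The median log2 fold change of these genes was 0.00. Epb41l2, a band 4.1 protein, had 0.25, and Ezr, encoding the membrane linker ezrin, -0.19 (adjusted p = 0.379 and 0.412, edgeR's quasi-likelihood test). The giant ankyrin genes Ank2 and Ank3 had 0.24 and 0.20, with 0.68 and 0.51 within SPF-539 and 0.01 and 0.04 within SPF-552.

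Of the 24 coreceptors and signalling partners none was called by the quasi-likelihood test and 6 had an unadjusted p under 0.05, against 9.6% of all genes. DESeq2 called 2, Ephb2 and Plxna1, both higher, against 1.33% of all genes. Ephb2, a receptor kinase that phosphorylates L1, averaged 337 ± 5.78 CPM in the libraries labelled mutant and 271 ± 10.2 CPM in those labelled control (SD, n = 3 each). Its log2 fold change was 0.31 (adjusted p = 0.158, edgeR's quasi-likelihood test), with 0.37 within SPF-539 and 0.28 within SPF-552. The authors' deposited table lists Ephb2 at 0.32 with an FDR of 0.0399. The semaphorin receptor gene Plxna1 followed with 0.30, and Notch1 and Nrp2 with 0.23 and 0.18 (adjusted p = 0.204, 0.404 and 0.486, edgeR's quasi-likelihood test).

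The 5 sheddase genes, whose proteases cut L1 and Chl1 from the surface, all lay between 0.05 and 0.29 in log2 fold change (Psen2 0.29, Adam10 0.13 and Bace1 0.05 among them). None was called by the quasi-likelihood test or had an unadjusted p under 0.05, against 9.6% of all genes for the latter. DESeq2 called 0, against 1.33%. Of 25 other neural immunoglobulin-family adhesion genes none was called by the quasi-likelihood test or DESeq2, against 0.138% and 1.33% of all genes. An unadjusted p under 0.05 was reached by 3 of them, against 9.6% of all genes. The 4 with the smallest p were the nectin genes Nectin3 and Nectin1, with log2 fold changes of 0.30 and 0.28, Cadm3, with 0.18, and Ncam1, with 0.24 (adjusted p = 0.276, 0.346, 0.507 and 0.573, edgeR's quasi-likelihood test). Cntn2 thus had a larger difference in log2 fold change than each of these 84 genes except Bcan, as a description of these lists.

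**Figure D5:**
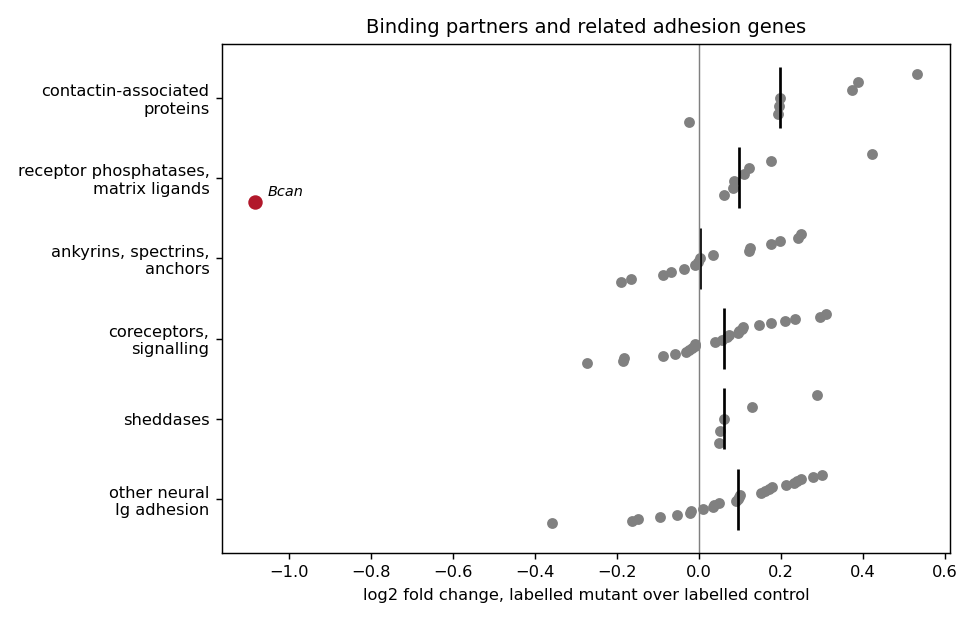
Log2 fold change, labelled mutant over labelled control, of 84 binding partners and related adhesion genes (points, 1 per gene, spread vertically by order within each list), with the median of each list as a black line and genes at an FDR under 0.05 in red. Bcan at -1.08 is the red point, and the others lie between -0.36 and 0.53.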

How the data were processed

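Per the labels' protocols, libraries were prepared from total RNA of embryonic forebrain (TruSeq RNA v2). Tools listed in the submitters' processing notes are edgeR 3.4.2, HTSeq 0.5.4p5 and TopHat2 2.0.9, and the build is mm10 (GRCm38). The deposited table holds estimated counts per gene, not scaled between libraries by the authors; 22.7 to 24.9% of its values are not whole, and no source used here names the tool that wrote them. The authors' deposited comparison table gives log2 fold changes and log2 CPM, a p-value with its FDR and a likelihood-ratio score, per the file headers; it lists FDRs up to 0.0994.

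Of 34866 gene identifiers 99.39% matched GENCODE M21. Counts were rounded and fitted in edgeR 4.0.16 (R 4.3.3) over all 6 libraries: filterByExpr (minimum count 10, total 15), TMM, robust quasi-likelihood test, Benjamini-Hochberg adjustment, FDR 0.05. CPM use TMM-scaled library sizes, log2 CPM a prior count of 2, and levels per length the union exon length. Standard errors are the log2 fold change over the root of F, and intervals use the test's degrees of freedom. The biological coefficient of variation was 12.3%. Chi-square statistics between replicates were 4.77 to 27.5 per gene, so no library was a copy. The labels say littermates but not which, so p-values measure the spread between these libraries. The fit was tested on simulated data. Alternatives were other scaling, DESeq2 1.42.0, the likelihood-ratio test, no filter, title number as block, exon length offsets, the SPF-552 libraries alone, and leave-one-out fits. All 10 members, Sap130, called partners or the 4 smallest p in each list, and the 3 nearest patterns to Cntn2 and Cntn3 were named by rule; of the genes this rule names, 1 is not reported here. Members and lists were chosen with earlier results of these data known.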

Additional observations from a re-analysis of the deposited data

How the results depend on the processing

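Of the 10 genes, the count called at an FDR of 0.05 was 0 and became 1 (Cntn2) with DESeq2, the likelihood-ratio test, the title number as a replicate block or the exon length offset, and 2 (Cntn2 and Chl1) with the replicate block and offset together or in SPF-552 alone. Leaving out 1 library gave 0 to 1. Cntn2 had a log2 fold change of -0.68 (adjusted p = 0.0166, edgeR's quasi-likelihood test) under the replicate block. Libraries with the same number had correlated deviations from their group means (0.04 to 0.187) and others negative ones (-0.123 to -0.099), and the labels do not say what the number marks. Of the 84 partners, 1 was called, against 4 with DESeq2, 7 with block and offset, 11 in SPF-552 alone and 0 to 5 without 1 library. Sap130 lay between 0.56 and 0.64 without 1 library. Cntn1 turned to -0.014 with block and offset and -0.17 in SPF-552 alone, and lay between -0.22 and 0.21 without 1 library. Without 1 library Cntn4 lay between -0.0143 and 0.14 and Cntn6 between -0.14 and 0.20, and Cntn6 was -0.0712 in SPF-552 alone. L1cam was -0.0181 with the offset, -0.0171 with block and offset and -0.0804 in SPF-552 alone, and lay between -0.0317 and 0.0537 without 1 library. With the longest transcript as length, 3 of the 10 genes kept their rank in level. Over all genes, 21 were called, against 189 with DESeq2, 150 with the likelihood-ratio test, 130 without the filter, 116 (0.762%) with the block, 68 with the offset, 407 (2.67%) with both, 564 in SPF-552 alone, 330 without replicate 1 labelled mutant and 3 to 9 without any other library. The cause of these differences was not tested.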
